A study of Mus musculus with 6 samples.

Results

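The genes described here are 10 core genes of the circadian clock, Per1, Per2, Per3, Cry1, Cry2, Arntl, Clock, Nr1d1, Nr1d2 and Dbp, in adult mouse hippocampus with and without a deletion of Rbfox1. They were taken by symbol from a table of 23235 genes, and all 10 were found. They were also looked for among 320 listed splicing events, of which 1 belonged to them, a cassette exon of Per3. They were chosen by their role in the clock with their FPKM and q-values in this comparison known, so their calls are given as a description.

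The RNA came from 6 male mice aged 60 to 70 days, read as paired 50 bp reads. All 6 carried Rbfox1 alleles flanked by loxP sites (Rbfox1 fl/fl). The 3 wildtype mice (Rbfox1 fl/fl; +/+) had no Nes allele, and the 3 Nes-cKO mice (Rbfox1 fl/fl; Nes/+) had 1, understood as the Nestin-driven Cre recombinase, which is active in neural progenitors, so that neurons and glia born from these carry the deletion. The presence of Cre and the loss of Rbfox1 cannot be told apart in this design. Expression is given as FPKM, a level scaled by transcript length and library depth, as 1 number for each gene in each genotype. Variation between the mice of a group was therefore not analysed here. The hour of the day at which tissue was taken is not given in the sources used here, and neither is the light cycle.

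The mammalian clock is a feedback loop of transcription. CLOCK and ARNTL (also called BMAL1) bind E-box elements and activate the Per and Cry genes, whose proteins enter the nucleus and block their own activators. A second loop runs through the nuclear receptors NR1D1 and NR1D2 (REV-ERB alpha and beta), which compete with the ROR receptors at RORE elements and repress Arntl. DBP, TEF and HLF activate genes with D-box elements, where NFIL3 acts as a repressor. Transcripts of this loop cycle over the day in most tissues, the hippocampus included, with the Per, Nr1d and Dbp transcripts in a phase roughly opposite to that of Arntl.

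The promoters of the members show which of these elements lie close to their start sites. RefSeq windows of the GRCm38.p6 build, from 250 bases before each start site to 50 after it, were found for 9 of the 10 genes, 13 windows in all, since Per1, Arntl and Clock have more than 1 start. Per2 had no window. The searched motifs, on both strands, were the E-box CACGTG, the D-box as TTATGTAA or TTACGTAA, the RORE, the cyclic AMP response element (CRE) TGACGTCA and its core TGACG. The CRE contains the core, and the other motifs do not contain one another.

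The upstream sequences of Per3 and Cry1 are shown because these are the period and cryptochrome genes with the largest fall and the largest rise, and because each holds a different element. The sequences of Per3 (chr4:151044666-151044915, minus strand, D-boxes in capitals) and of Cry1 (chr10:85185055-85185304, minus strand, E-box in capitals) run 5′ to 3′ and end 1 base before the start site.
Per3: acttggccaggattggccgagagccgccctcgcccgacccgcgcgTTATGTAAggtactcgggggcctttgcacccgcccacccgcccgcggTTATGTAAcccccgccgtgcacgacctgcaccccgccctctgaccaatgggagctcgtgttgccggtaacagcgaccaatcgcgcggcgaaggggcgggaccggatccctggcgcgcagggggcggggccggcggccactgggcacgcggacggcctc
Cry1: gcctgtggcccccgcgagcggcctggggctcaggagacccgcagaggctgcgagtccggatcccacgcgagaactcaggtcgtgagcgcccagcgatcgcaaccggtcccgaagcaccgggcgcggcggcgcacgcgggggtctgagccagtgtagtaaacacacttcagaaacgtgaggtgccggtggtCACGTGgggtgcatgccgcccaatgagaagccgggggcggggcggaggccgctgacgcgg

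Per3 held 2 copies of the D-box TTATGTAA, which begin 205 and 158 bases before its start site. Among all 32851 windows of the RefSeq table, 1.06% held a D-box and 8 windows held at least 2. No other member had a D-box in its window. E-boxes were found in 2 members, Cry1 (60 bases before the start) and Per1 (166 bases before its first start), against 7.15% of all windows. The RORE was found in Arntl alone among the members, 26 bases past its second start, against 0.384% of all windows. No member held the full CRE (1.79% of all windows), and Per1, Cry1 and Cry2 held the core TGACG (20.8%). The percentages are of single windows, whereas members are counted as genes, some of which have more than 1 window. A match here is a description of letters. A window without one says nothing about more distant elements, or about elements inside it whose letters differ from those searched.

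The Per1 and Arntl sites are shown as the other examples of an E-box and of a RORE, with the motif in capitals. They lie at chr11:69098753-69098812 and chr7:113207527-113207556, both on the plus strand.
Per1: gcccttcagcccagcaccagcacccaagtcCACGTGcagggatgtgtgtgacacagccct
Arntl: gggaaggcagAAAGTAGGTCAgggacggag

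**Figure D1:**
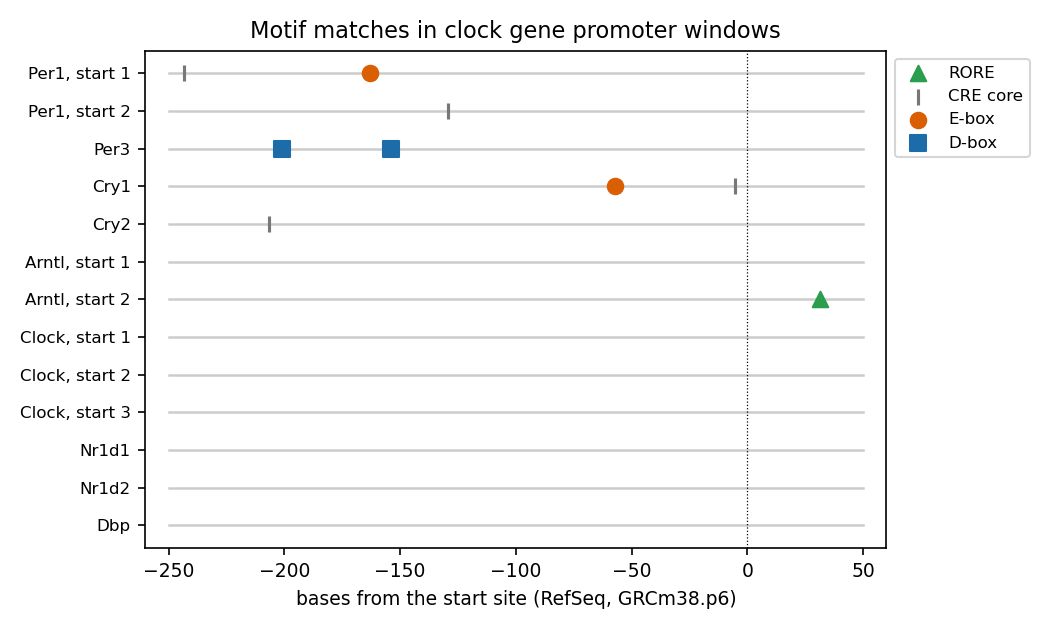
Motif matches in the RefSeq promoter windows of 9 clock genes, drawn by distance in bases from the start site (dotted line), with 1 row per start site. Symbols mark E-boxes, D-boxes, the RORE and the CRE core. Both D-boxes are in Per3, at 205 and 158 bases before its start.

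Rbfox1, the deleted gene, was listed at 67.5 (wildtype) and 23.0 (Nes-cKO) FPKM, a fall to 34.0% (authors' deposited table, q = 0.00152).

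All 10 clock genes were tested and stood above 1 FPKM in each genotype. In wildtype hippocampus the level per transcript length was highest for Nr1d1, at 37.8 FPKM, followed by Cry2 (28.5), Nr1d2 (17.1), Dbp (14.4), Per1 (13.9), Arntl (11.2), Clock (7.73), Per2 (6.43), Per3 (6.36) and Cry1 (2.79). Nr1d1 stood 13.6-fold above Cry1. With no values per mouse, it cannot be said which neighbours in this order differ beyond their spread. In Nes-cKO, Nr1d1 (35.5 FPKM) and Cry2 (29.0 FPKM) again led, Per1 came before Nr1d2, and Per3 took the last place from Cry1.

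Of the 10 genes, 4 passed a q of 0.05 in the authors' deposited table, Per2 and Cry1 higher and Per3 and Nr1d2 lower in Nes-cKO. Over all 14964 tested genes, 6.92% passed, 4.62% higher and 2.29% lower. Because the genes were chosen with this contrast in view, nothing is read from the difference between these shares. The median of the log2 ratios, taken as Nes-cKO over wildtype throughout, was 0.0019 for the 10 genes and 0.03 for all tested genes. The clock genes that passed lay on either side of these medians.

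**Figure D2:**
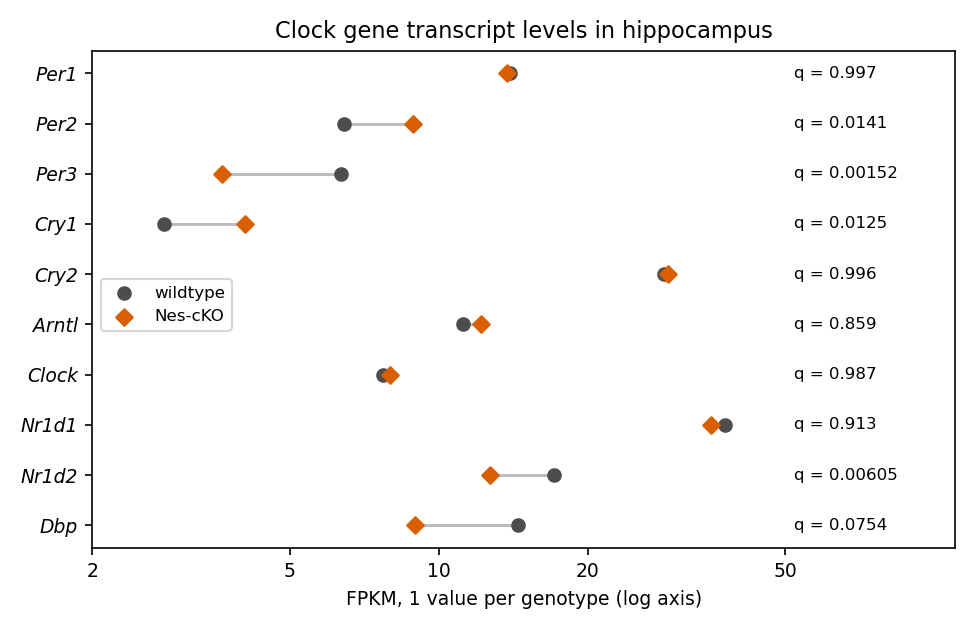
FPKM of the 10 clock genes on a log axis, with 1 value per genotype from the authors' deposited table (circles, wildtype; diamonds, Nes-cKO) and the deposited q beside each gene. There are no error bars because values per mouse were not used. Per2 and Cry1 lie to the right in Nes-cKO, Per3, Nr1d2 and Dbp to the left, and the other 5 genes nearly coincide.

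The activators of the loop were listed at close levels in the 2 genotypes. Arntl (mm9 chromosome 7, 120350979 to 120457640), whose protein is the partner of CLOCK, had 11.2 FPKM in wildtype against 12.2 FPKM in Nes-cKO, a log2 ratio of 0.12 (authors' deposited table, q = 0.859). Clock (chromosome 5, 76641202 to 76733573) had 7.73 FPKM against 7.97 FPKM, a log2 ratio of 0.04 (authors' deposited table, q = 0.987). Neither passed, and the table gives no interval that would show how small a change was detectable. Npas2, which can take the place of CLOCK in the forebrain, was listed at 5.98 and 5.45 FPKM and did not pass either.

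The 3 period genes, whose proteins carry the cryptochromes into the repressive complex, each took a different course. Per1 (chromosome 11, 68912458 to 68923459), the member that neuronal activity and glucocorticoids are also known to induce, had 13.9 FPKM in wildtype against 13.7 FPKM in Nes-cKO, a log2 ratio of -0.02 (authors' deposited table, q = 0.997). Per2 (chromosome 1, 93312559 to 93355905) rose from 6.43 to 8.89 FPKM, 1.38-fold, a log2 ratio of 0.47 (authors' deposited table, q = 0.0141). Per3 (chromosome 4, 150377764 to 150418731), which is dispensable for the rhythm in mice, fell from 6.36 to 3.65 FPKM, 57.4% of wildtype. Its log2 ratio was -0.80 (authors' deposited table, q = 0.00152, a value that no gene of the table goes below). Per2 and Per3 thus stood almost level in wildtype, at a ratio of 1.01, and at a ratio of 2.43 in Nes-cKO. The summed level of the 3 genes was 26.7 FPKM in wildtype against 26.3 FPKM in Nes-cKO. Among 12685 tested genes that reached 1 FPKM in a genotype, 2.48% had a log2 ratio at least as far from 0 as that of Per3, and 6.91% as that of Per2.

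The cryptochromes, which bind CLOCK and ARNTL directly and are the main repressors of the loop, were listed at very different levels. Cry1 (chromosome 10, 84594445 to 84647799) rose from 2.79 to 4.06 FPKM, 1.46-fold, a log2 ratio of 0.54 (authors' deposited table, q = 0.0125). Cry2 (chromosome 2, 92243804 to 92274226) had 28.5 FPKM in wildtype against 29.0 FPKM in Nes-cKO, a log2 ratio of 0.02 (authors' deposited table, q = 0.996). Cry2 lay 10.2-fold above Cry1 in wildtype and 7.15-fold above it in Nes-cKO. Cry1 was the lowest of the 10 genes in wildtype, so its call rests on the lowest level among them. The table puts Cry2 and D930015M05Rik in 1 locus, and the latter was listed at 0.851 and 0.904 FPKM.

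The REV-ERB receptor genes repeated this pattern of an abundant member at a close level and a less abundant one that passed. Nr1d1 (chromosome 11, 98629249 to 98636556) had 37.8 FPKM in wildtype against 35.5 FPKM in Nes-cKO, a log2 ratio of -0.09 (authors' deposited table, q = 0.913). Nr1d2 (chromosome 14, 19036570 to 19071620) fell from 17.1 to 12.7 FPKM, 74.2% of wildtype, a log2 ratio of -0.43 (authors' deposited table, q = 0.00605). Thra, the thyroid hormone receptor gene known to overlap Nr1d1 on the opposite strand in its longer transcripts, ended 2823 bases from it in this table and was listed at 224 and 206 FPKM. The libraries were strand-specific, but whether reads were assigned to genes by strand is not given in the sources used here, and a part of Thra reads in the Nr1d1 value was not tested. Receptor genes whose products oppose REV-ERB at the RORE were low, with Rora at 1.42 and 1.63 FPKM and Rorb at 1.73 and 1.50 FPKM, and neither passed.

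Dbp (chromosome 7, 52960617 to 52973372), the D-box activator whose transcript has one of the largest daily swings known, was listed at 14.4 FPKM in wildtype against 8.96 FPKM in Nes-cKO, 62.2% of wildtype. Its log2 ratio of -0.69 was the second farthest from 0 among the 10, yet with q = 0.0754 in the authors' deposited table it did not pass. Nr1d2, with a smaller log2 ratio of -0.43, had a deposited score of -2.03, and Dbp a score of -1.60. The log2 ratio per unit of score was 0.43 for Dbp and between 0.21 and 0.27 for the other 9 genes, so the authors' test allowed a wider error to Dbp. Dbp also shares its locus in the table with Sphk2, a sphingosine kinase gene, listed at 9.79 and 9.09 FPKM.

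The relatives of Dbp all passed. Tef, a D-box activator like Dbp, fell from 69.9 to 46.4 FPKM, 66.4% of wildtype, and Hlf, the third of these activators, fell from 18.4 to 10.7 FPKM, 58.2% of wildtype. Nfil3, the repressor at the same element, rose from 3.64 to 5.48 FPKM, 1.50-fold. The q-values in the authors' deposited table were 0.00152 for Tef, 0.00152 for Hlf and 0.0071 for Nfil3. The level of Dbp, Tef and Hlf added together, a sum chosen after the values were seen, was 103 FPKM in wildtype against 66.1 FPKM in Nes-cKO, 64.3% of wildtype. Tef made up most of this sum in either genotype. Tef had an E-box in the windows of both its starts, and none of the 3 related genes had a D-box there.

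Among 8 further genes listed with the loop, Timeless and otherwise regulators of transcription, 1 rose and 7 did not pass, with a median log2 ratio of -0.17. The one that rose was Bhlhe41 (DEC2), which represses CLOCK and ARNTL targets, from 5.89 to 9.74 FPKM, 1.65-fold (authors' deposited table, q = 0.00152). Its relative Bhlhe40 (DEC1) was listed at 29.7 and 24.5 FPKM (authors' deposited table, q = 0.195). Ciart, a repressor with 3 E-boxes in its promoter window, was listed at 5.53 and 4.71 FPKM and did not pass.

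Genes that act on clock proteins after translation, and coregulators of transcription, come next. Of 17 kinases, phosphatases, ubiquitin ligases and other modifiers, Fbxw7 rose from 39.0 to 50.4 FPKM (q = 0.0329 in the authors' deposited table) and 16 did not pass. The casein kinase genes Csnk1d and Csnk1e, whose products phosphorylate PER, stood at 35.6 and 36.4 FPKM and at 22.6 and 23.3 FPKM. Of the 13 coregulators reported here, 0 passed, and their smallest unadjusted p in the authors' deposited table was 0.09745. The most abundant of them, Nono and Hdac3, were listed at 50.4 and 56.6 FPKM and at 37.6 and 40.6 FPKM. The median log2 ratio was 0.06 for each of these lists.

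Most rhythmic output genes and signalling genes that feed the clock did not pass. Of 15 output genes, 13 were tested, 2 rose, 1 fell and 10 did not pass. Klf10, a transcription factor gene, rose from 6.97 to 15.8 FPKM, 2.27-fold. Noct (nocturnin, listed as Ccrn4l) rose from 16.2 to 25.3 FPKM, 1.56-fold. Tsc22d3, which glucocorticoids also induce, fell from 21.2 to 15.3 FPKM, 72.1% of wildtype. Of 16 genes of cyclic AMP, CREB and ERK signalling, the kinase gene Sik2 rose from 4.10 to 7.01 FPKM, the adenylyl cyclase gene Adcy1 was lower (90.1 and 48.7 FPKM), and the other 14 missed the threshold. All 5 genes named as changed here had q-values between 0.00152 and 0.0039 in the authors' deposited table.

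Over the 6 lists together, 69 of 71 genes were tested, 6 rose, 4 fell and 59 did not pass. All 3 genes of the D-box group were among these calls, and 1 of the 17 modifiers. Over all 14964 tested genes, 6.92% passed, 4.62% higher and 2.29% lower. The 6 lists were drawn up with earlier results of the same data known, and no test of a list was made. Nothing is therefore read from the difference between these shares.

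**Figure D3:**
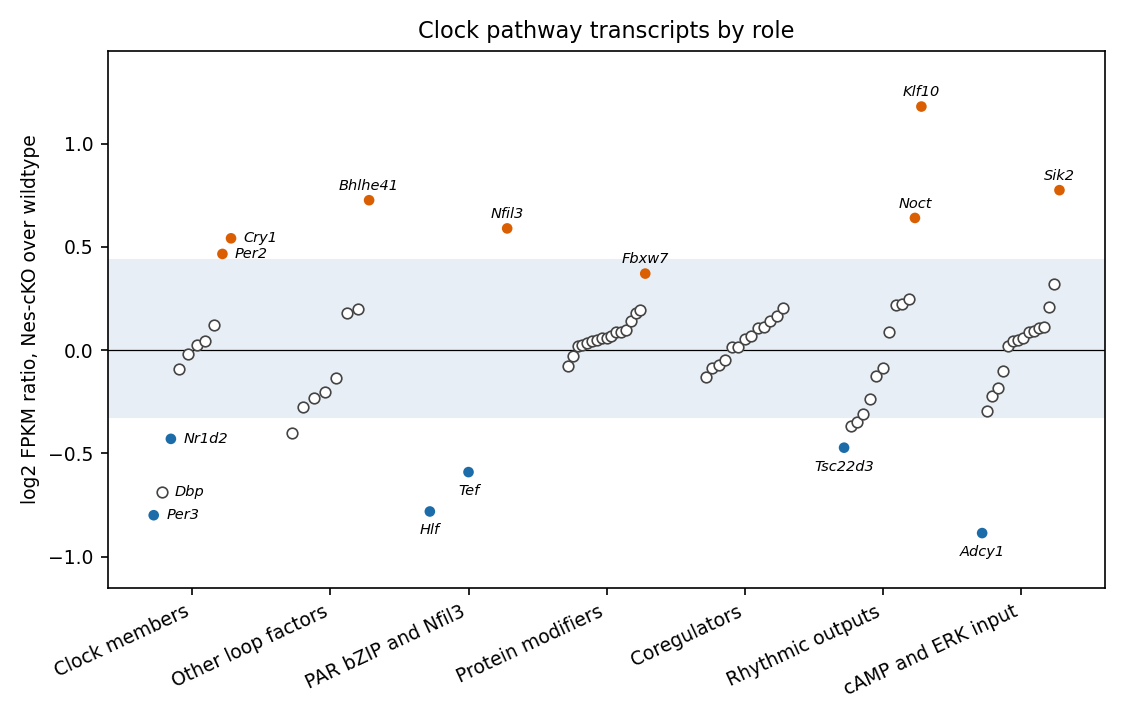
Log2 ratio of FPKM, Nes-cKO over wildtype, for the 10 clock genes and 6 lists of related genes, with 1 point per tested gene. Filled points passed a q of 0.05 in the authors' deposited table (orange higher, blue lower), open points did not, and the shaded band holds the central 90% of tested genes that reached 1 FPKM in a genotype, from -0.32 to 0.44. Klf10, Sik2, Bhlhe41, Noct, Nfil3, Cry1 and Per2 lie above the band, and Adcy1, Per3, Hlf, Tef, Tsc22d3, Nr1d2, the open point of Dbp and 3 more open points below it.

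The same libraries differed in transcripts of other cells and of activity. All 8 oligodendrocyte markers were lower, with a summed level of 1690 FPKM in wildtype against 1153 FPKM in Nes-cKO. Of 5 thalamic markers 3 were lower (summed 24.0 and 15.8 FPKM), and of 4 cerebellar markers 3 were higher (summed 19.1 and 49.0 FPKM). Of 4 choroid plexus markers 3 were tested, of which 1 was lower and 2 did not pass (all 4 summed, 16.4 and 11.6 FPKM). Among 12 immediate early genes 6 were higher. Among 11 glucocorticoid response and corticosteroid receptor genes 1 was higher and 2 were lower. Of 6 astrocyte markers 2 were higher and of 6 hippocampal neuron markers 1 was higher, and the neuron markers summed to 417 and 413 FPKM. Of 5 markers of the suprachiasmatic nucleus, the central clock of the brain, Avp, Prok2 and Six6 were each under 0.1 FPKM in wildtype and were not tested. Lhx1 was listed at 0.195 and 0.377 FPKM and Vip, which hippocampal interneurons also express, at 9.62 and 9.91 FPKM, and neither passed. The part of these differences in the clock gene values was not tested, and in such tissue RNA fewer cells of a type and less RNA per cell cannot be told apart.

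The single listed splicing event of the clock genes was in Per3, the member with the largest fall. It is a 151 nt cassette exon (mm9 chr4:150382337-150382487, minus strand) that GENCODE M21 gives as exon 20 of 21 in its first Per3 transcript. It is all coding, and 151 leaves a remainder of 1 when divided by 3. A transcript that skips it onto the annotated start of the last exon therefore changes reading frame. The exon is shown because the event turns on it, read from the annotated transcript at chr4:151008228-151008378 of GRCm38.
Per3 cassette exon: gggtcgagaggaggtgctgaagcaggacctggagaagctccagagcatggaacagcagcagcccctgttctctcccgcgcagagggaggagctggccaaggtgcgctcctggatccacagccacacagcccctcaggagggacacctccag

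In the authors' deposited table the inclusion ratio of this exon was 84.9% in wildtype and 98.1% in Nes-cKO, a gain of 13.2 percentage points with p = 1.02e-07. The table lists events only above a change of 10 percentage points, and 40.6% of its 249 cassette exons had a change at least as large. In wildtype, 93 reads joined the previous exon to the cassette, 2 joined the cassette to the last exon, and 7 skipped it. In Nes-cKO these counts were 57, 6 and 1. The difference in skipping is therefore one of 7 reads against 1, and the inclusion side rests almost wholly on a single junction.

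Taking the rounded mean of the inclusion junctions, 48 of 55 reads supported inclusion in wildtype, 87.3% (95% Wilson interval 76.0% to 93.7%), and 32 of 33 in Nes-cKO, 97.0% (84.7% to 99.5%). The intervals, which cover counting error only, overlap. Fisher's exact test (two-sided) gave p = 0.249, and p = 0.336 after Benjamini-Hochberg adjustment over the 249 cassette exons, of which 24.1% passed 0.05 in the listed direction. This test compares pooled reads of 2 genotypes and takes no account of mice. This count thus did not detect a difference in the Per3 exon. It averages inclusion junctions of 93 and 2 reads in wildtype and leaves out exon coverage, so it cannot decide whether the exon differed.

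**Figure D4:**
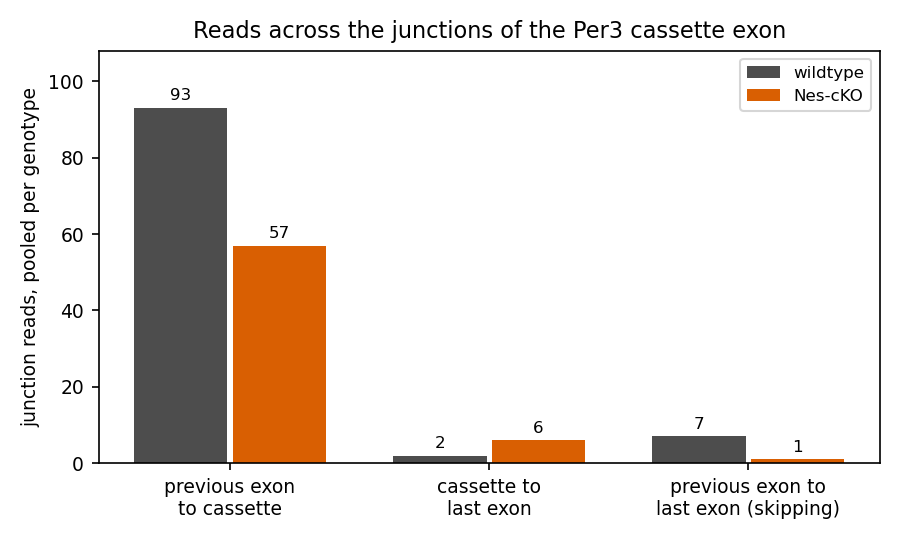
Reads across the 3 junctions of the Per3 cassette exon, pooled per genotype (grey, wildtype; orange, Nes-cKO), with the count above each bar. The junction from the previous exon holds 93 and 57 reads, the junction into the last exon 2 and 6, and the skipping junction 7 and 1.

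The 2 inclusion junctions of this exon were unusually uneven. The smaller held 2.11% of the inclusion reads in wildtype, a share that only 3 of the 249 listed exons, Per3 among them, had as low, against a median of 36.9%. The last exon of the table is 2172 nt long and lies 2270 bases from the cassette, while in another GENCODE Per3 transcript the last exon is 2174 nt long and lies 2268 bases away. The cassette (151 nt), the intron before it (871 bases) and the previous exon (184 nt) have the same length in each source. The table thus starts the last exon 2 bases later than the annotation, and whether reads that join at the annotated start were counted was not tested. The stretch below joins the end of the cassette to the start of the last exon as annotated (chr4:151005945-151005959 of GRCm38), with the 2 bases that the table leaves out in capitals.
Per3 junction: gagggacacctccagAGctgtgtcgcctgt

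These 2 bases are AG, the letters that end nearly all introns, so the later start also follows an AG. Both the inclusion junction with few reads and the skipping junction in this row end at that later start. By these lengths, a transcript that skips the cassette onto that later start lacks the 2 bases as well. The frame change given above does not apply to it. Counted on that start alone, 2 of 9 reads came from the cassette in wildtype, 22.2% (95% Wilson interval 6.32% to 54.7%), and 6 of 7 in Nes-cKO, 85.7% (48.7% to 97.4%). This comparison was made after the counts were seen and gave p = 0.0406 by Fisher's exact test (two-sided), without adjustment.

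The fall of the Per3 transcript was also visible in the coverage of these exons. The authors' coverage of the last exon was 130 in wildtype and 68.6 in Nes-cKO, 52.9% of wildtype. For the cassette it was 84.8 and 50.0, 59.0% of wildtype, and for the previous exon 85.1 and 54.6, 64.2% of wildtype. These values come from the same reads as the FPKM, which stood at 57.4% of wildtype, and how coverage was scaled is not given in the sources used here. No splicing event was listed for the other 9 clock genes or for the 71 genes of the related lists.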

How the data were processed

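Hippocampal RNA of 3 wildtype and 3 Nes-cKO mice was sequenced from strand-specific polyadenylated libraries, per the labels' protocols. CASAVA, Cufflinks, Cuffdiff and mm9 appear, with no version or role, in the submitters' processing notes. Per the file headers, the authors' gene table holds FPKM by genotype with the score, p-value and q-value of the test. The deposited q-values matched a Benjamini-Hochberg adjustment over 14964 tested genes to within 5.21e-07. The splicing tables hold an inclusion ratio (a fraction), p-values, coverage (a signal) and junction read counts per genotype, deposited by the authors. Reads per library are unknown.

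No expression test was run here: the authors' q of 0.05 was the threshold. Log2 ratios were computed from FPKM with no pseudocount. The normal quantile of a deposited p was 1.74 times the deposited score at the median, so the score is not a normal deviate and no interval was derived from it. Gene table starts were read as 0-based, since 7152 spans then equalled RefSeq gene lengths and 452 did so otherwise, and are printed from base 1. List symbols matched directly or, for Noct, Ciart and Kmt2a, by a RefSeq synonym.

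The members, lists and alternatives were chosen with earlier results of these data known. Named genes are the 10 members, every gene of the 6 clock lists that passed and reached 1 FPKM, the 2 most abundant genes of such a list with no call, genes sharing a member's locus and Rbfox1. Others (Npas2, Thra, Rora, Rorb, Bhlhe40, Ciart, Csnk1d, Csnk1e, Avp, Prok2, Six6, Lhx1, Vip) were chosen after their values were seen. Some list genes are not reported here and are left out of the list counts. Fisher's exact test on junction reads and the motif search were tested on simulated data. Python 3.11.15, pandas 2.3.3, scipy 1.17.1 and statsmodels 0.14.6 were used, with matplotlib 3.10.9 for figures.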

Additional observations from a re-analysis of the deposited data

How the results depend on the processing

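The clock gene calls depended on the threshold. With a q of 0.01 the count went from 4 to 2 (Per3 and Nr1d2), with 0 higher. With a q of 0.1 it was 5, Dbp being added. The Benjamini-Yekutieli adjustment left 1, Per3, with 0 higher and 1 lower, and 4 of the related genes higher in place of 6. A pseudocount of 1 FPKM added to both values cannot change the sign of a log2 ratio. Centring on the median of expressed genes shifts each log2 ratio by only 0.03, less than any called ratio. Neither alternative could therefore reverse a called gene, and neither tests the calls. The ratio of Cry2, not called, went from 0.02 to -0.0065 after centring. The adjusted p of the Per3 exon was 0.226 when inclusion junctions were summed. Without the 50 bases past the start site, the count of members with a RORE was 0. No paired analysis was possible because the tables hold 1 value per genotype, and for the same reason no replicate could be left out. Of all comparisons with an alternative, including those above, 44 were labelled unchanged or stayed within 1.5 times the count and 6 did not. The 44 include both alternatives of every member log2 ratio, which could not have been labelled as changed. The tally is therefore no measure of how stable the calls are.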
